A study of Mus musculus with 48 samples.

Results

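Cytosolic ribosomal proteins build the small and the large subunit of the ribosome, the machine that reads mRNA and joins amino acids into protein. Their genes are among the most strongly expressed in any cell, and the proteins are made in matched amounts, since each ribosome holds a single copy of nearly all of them and more copies only of the acidic stalk proteins. In neurons, ribosomes fill the cell body and also reach dendrites, where local translation takes part in synaptic plasticity. The genes described here are the 82 of 15782 measured genes whose symbols begin with Rpl or Rps followed by a digit, or are Rplp0, Rplp1, Rplp2 or Rpsa. The 9 S6 kinase genes, which share the Rps prefix, were left out. Of the 82 genes, 48 belong by name to the large subunit and 34 to the small subunit, and 74 encode the standard ribosomal proteins, 43 of the large and 31 of the small subunit. The other 8 are like-named genes that the symbol rule takes in. They are the paralogues Rpl3l, Rpl7l1, Rpl22l1, Rpl36al and Rps27l, the genes Rpl32l and Rps23rg1, and Rps19bp1, which encodes a protein that binds ribosomal protein S19. Rpl30, Rpl32 and Rpl39 were not analysed here.

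The data came from brains of 12 male C57BL/6 mice, 10 weeks old at launch, and were made with GeoMx digital spatial profiling, in which gene probes are released from a drawn area of a tissue section and counted. FLT mice spent 35 days in space and GC mice were ground controls housed for the same time, starting 3 days later. Brains of FLT mice were taken after return to Earth and transport to the laboratory, so that flight cannot be told apart from return and transport. Mice received saline (SAL) or 1 mg/kg of BuOE, a manganese porphyrin that mimics superoxide dismutase, under the skin from 7 days before launch and then weekly, so that FLT-SAL, FLT-BuOE, GC-SAL and GC-BuOE comprised 3 mice each. One area of illumination (AOI) was taken per mouse in Cornu Ammonis 1 of the hippocampus (CA), the dentate gyrus (DG), the frontal cortex (FCT) and the cortex (CT), 48 AOIs in all, and the areas were chosen on slides stained for GFAP, Iba1 and nuclei. The 3 mice of a group shared a slide, so that group and slide cannot be told apart.

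AOIs held 322629 to 1579380 deduplicated counts, with a median of 652040. The summed CA1 pyramidal markers lay between 332.5 and 541 Q3-normalized counts in CA and between 86.7 and 257 in the other regions, and the dentate granule markers lay between 320 and 476 in DG and between 118 and 183 elsewhere, so CA and DG carried the markers of their labels. An AOI mixes cell types, and fewer cells of a type and less RNA per cell cannot be told apart in it.

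Many ribosomal protein mRNAs start with a run of pyrimidines, the terminal oligopyrimidine (TOP) tract, through which mTORC1 signalling governs their translation. Windows around the annotated start were found in RefSeq (GRCm38.p6) for 64 of the 82 genes and for 12484 of all measured genes. A start with C followed by at least 4 bases that are all C or T was found in 14 of the 64 genes (21.9%) and in 2.96% of all genes with a window. A run of 8 or more C or T within 5 bases of the start was found in 26 (40.6%) and in 11.8%, respectively. The letters CCGGAAG, a core site of ETS factors, were found on either strand of the window from 250 bases before to 50 bases after the start in 24 genes (37.5%) and in 15.3% of all. Where a gene had several annotated starts, a match at any of them was counted. In the GENCODE annotation, 27 of 80 of these genes (33.8%) held a small nucleolar RNA gene within their bounds, against 1.51% of all annotated genes in the tables. The windows below, of 15 bases on each side of the start, belong to genes on which the comparisons between regions and groups turned. Capitals mark the longest run of C and T that touches the 5 bases on either side of the start.
Rps2 (chr17:24720048-24720077, plus strand): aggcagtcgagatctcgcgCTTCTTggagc
Rpl15 (chr14:18270972-18271001, minus strand): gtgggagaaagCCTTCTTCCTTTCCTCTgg
Rpl38 (chr11:114668565-114668594, plus strand): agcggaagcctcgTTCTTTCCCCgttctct
Rps15 (chr10:80292416-80292445, plus strand): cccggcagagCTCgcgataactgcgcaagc
Rps3 (chr7:99483695-99483724, minus strand): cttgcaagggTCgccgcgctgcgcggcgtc
Rps7 (chr12:28635939-28635968, minus strand): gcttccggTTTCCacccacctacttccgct
Rpl15 and Rpl38 had runs of 17 and 10 pyrimidines, while the run in Rps3 was 2 bases long at this annotated start.

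The ribosomal protein genes gave some of the strongest signals in these tissues. Of the 82 genes, 67 were in the top 5% of all genes by median level, all of them standard ribosomal protein genes, and 69 had a median over 5 times the negative-control value of the same AOI. Each gene was read by a single probe, so levels are compared between samples and not between genes. The 4 genes under 2 times the negative-control value were like-named genes. Their median ratios to the negative control were 1.23 for Rpl3l, whose product replaces Rpl3 in striated muscle, 1.61 for Rps27l, 1.84 for Rps19bp1 and 1.93 for Rpl32l. These probes were thus close to background in brain. Among paralogue pairs with annotated transcripts, the longest identical stretch was 26 bases for Rpl22 and Rpl22l1, 24 for Rpl36a and Rpl36al and 22 for Rpl3 and Rpl3l. Ribosomal protein genes have many processed pseudogenes, and whether probes also took up transcripts of such copies was not tested.

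The first question was how these genes differ between brain regions. Together they made up 1.61 to 1.82% of the summed normalized counts in the 12 CA AOIs. The range was 1.97 to 2.34% for DG, 1.96 to 2.33% for FCT and 1.89 to 2.10% for CT. CA was therefore lowest and did not overlap any other region, while DG, FCT and CT overlapped one another. Large subunit genes carried 62.0% of the summed level (median over AOIs). The mean log2 level of the large minus that of the small subunit genes, into which the probes also enter, stayed between 0.03 and 0.18 in every AOI. Signal over background moved with the regions. The upper quartile was 1.91 to 2.48 times the negative-control value in CA. It was 2.97 to 4.33 times that value in DG, 2.22 to 3.32 in FCT and, for CT, 2.38 to 3.00. The density of nuclei was 1.66 to 2.64 per 1000 square micrometres in CA and 3.85 to 6.34 in DG. The part of signal over background and of nuclear density in the regional differences was not tested beyond the background-subtracted values given below.

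**Figure D1:**
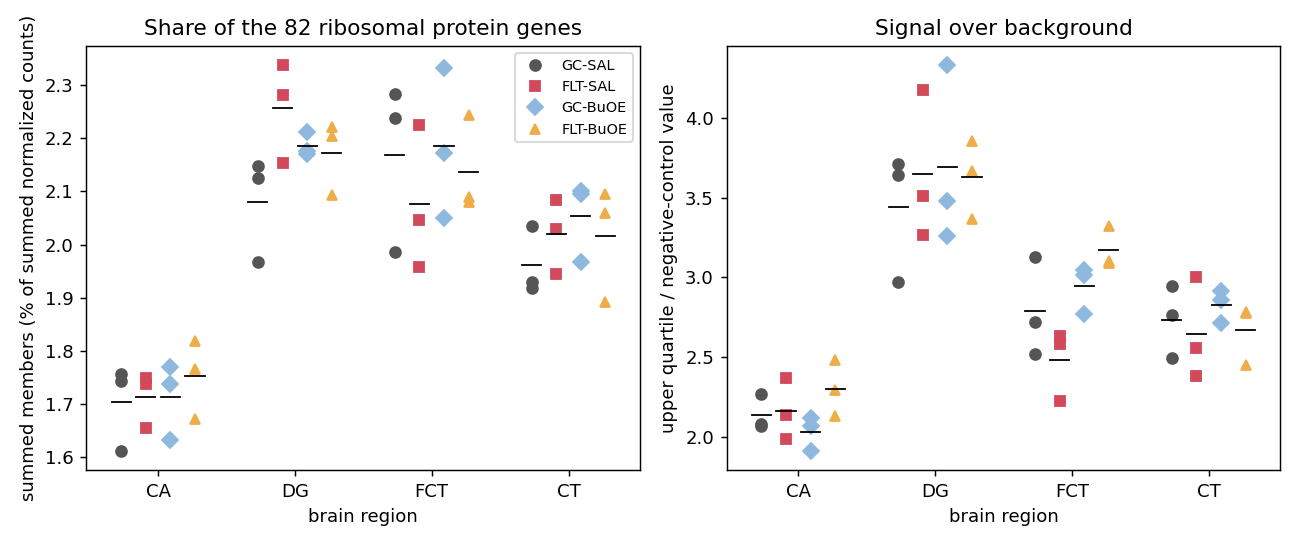
Left, summed level of the 82 ribosomal protein genes as a percentage of all summed normalized counts (vertical axis, not starting at 0) for each AOI, by region and group; right, upper quartile of the AOI divided by its negative-control value. Points are mice and lines are means of 3 mice; the 12 CA AOIs lie at 1.61 to 1.82%, below every AOI of the other regions, and they also have the lowest signal over background as a region.

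On the Q3 scale, ribosomal protein genes were higher in DG than in CA. In the limma fit over 48 AOIs with mouse as a random block, 77 of the 82 genes had a positive log2 difference, and the median over the genes was 0.34, against -0.07 over all genes. At an adjusted p below 0.05 (Benjamini-Hochberg over all genes), 64 genes were higher in DG, where 10.5% of all genes were called in that direction, and 1 was lower, where 13.1% were. Beyond 1.5-fold as well, 9 genes were higher, where 2.41% of all genes were. The median difference was 0.34 for the large and 0.32 for the small subunit genes. DG exceeded CA in all 12 mice for 38 of the genes, and for 16 genes every DG AOI was above every CA AOI. The same counts over all genes are not given, so the 38 and the 16 have no base rate.

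Rps2, a small subunit protein near the channel where mRNA enters, led this comparison. Its lowest, median and highest Q3-normalized counts were 454, 504 and 551 in the 12 DG AOIs and 260, 306 and 354.5 in the CA AOIs. The regions did not overlap, and the log2 difference was 0.72 ± 0.06 (SE, adjusted p = 1.4e-17). Rpl15, a large subunit protein, ranged from 219 over 243 to 270 in DG and from 135 over 142 to 186 in CA. Its log2 difference was 0.71 ± 0.07 (adjusted p = 1.3e-16), and again no AOI of CA reached the lowest of DG. Rpl17, which lines the tunnel through which the new protein leaves, measured 597 ± 43.8 in DG and 374 ± 36.4 in CA (SD, n = 12 each), a log2 difference of 0.68. Rpl21, a large subunit protein, measured 429 ± 20.2 and 274 ± 12.9, a log2 difference of 0.64. Rpl35a, one of the genes mutated in Diamond-Blackfan anaemia, measured 384 ± 23.6 and 240.3 ± 26.4, a log2 difference of 0.68. Rpl29 measured 337 ± 24.5 and 217 ± 15.6, a log2 difference of 0.63. For these 4 genes too, DG and CA did not overlap and DG was higher in 12 of 12 mice. The other genes beyond 1.5-fold were Rpl7a, Rpl10 and Rps23rg1, a retrocopy of Rps23 that differed by 0.66 ± 0.09 where Rps23, a protein of the decoding centre, differed by 0.19 ± 0.07.

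Members with known further roles spread over this range. Rpsa, also known as the laminin receptor, was higher in DG by 0.58 ± 0.08 on the log2 scale (adjusted p = 1.2e-09). Rps6, the substrate of the S6 kinases, was higher by 0.47 ± 0.07 (adjusted p = 3.2e-09), and Rpl3, at the peptidyl transferase centre, by 0.49 ± 0.07 (adjusted p = 9.0e-09). The stalk of the large subunit, which recruits elongation factors, stood lower in the order: Rplp0, its anchor, differed by 0.22 ± 0.09 (adjusted p = 0.058), Rplp1 by 0.15 ± 0.07 (adjusted p = 0.086) and Rplp2 by -0.04 ± 0.07 (adjusted p = 0.76). Rpl22, a protein that ribosomes can do without, differed by 0.17 ± 0.08 and its paralogue Rpl22l1 by 0.16 ± 0.09, neither past the threshold. Rpl36a and Rpl36al were both higher, by 0.35 ± 0.09 and 0.23 ± 0.08, and so were Rpl7 and Rpl7l1, by 0.52 ± 0.08 and 0.34 ± 0.10. Rps27, by contrast, was higher by 0.39 ± 0.08, while Rps27l, Rpl3l and Rpl32l, all near background, differed by -0.02 ± 0.12, -0.13 ± 0.17 and 0.00 ± 0.13. The gene that was lower in DG was Rps19bp1 (-0.35 ± 0.12, adjusted p = 0.019), which is no ribosomal protein and was also near background.

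The difference of the family as a whole depended on the scale, as the plot of medians by scaling shows. Subtracting the negative-control value and scaling again moved the DG minus CA median of all genes from -0.07 to 0.29, and that of the ribosomal protein genes from 0.34 to 0.09. Relative to all genes, the family median was thus 0.41 above on the Q3 scale and 0.19 below (a difference of -0.19) after background subtraction. After quantile normalization it was 0.14 above. With background subtraction 28 genes were called, 19 higher in DG, where 17.9% of all genes were called in that direction, and 9 lower, where 5.59% were. With quantile normalization 35 genes were called, 30 higher (9.87% of all genes) and 5 lower (8.12%). With edgeR and with DESeq2, on counts, 69 genes were called with each tool, all higher in DG. Of all genes, edgeR called 12.1% higher and 8.52% lower, and DESeq2 10.2% higher and 5.92% lower. In GC-SAL mice alone, 12 genes were called, all higher, where 2.31% of all genes were. For Rps2 the log2 difference was 0.35 after background subtraction and 0.47 after quantile normalization, and for Rpl15 it was 0.41 and 0.46. Rps23, called higher on the Q3 scale, was at -0.15 after background subtraction. The number of genes higher in DG in the main fit, under background subtraction, under quantile normalization and in edgeR and DESeq2 was 19, among them Rps2, Rpsa, Rpl7, Rpl7a, Rpl7l1, Rpl10, Rpl15, Rpl17, Rpl21, Rpl29, Rpl34, Rpl35a, Rps3a1, Rps9, Rps15a, Rps18, Rps23rg1 and Rps27a. The share of all genes kept under every one of these is not given, so the 19 have no base rate. When each AOI was centred on the mean of the 82 genes, so that a member was compared with its own family, 20 genes were higher and 17 lower in DG than the family, while 2.97% of all genes were called higher and 74.5% lower on this scale. On that scale the difference was 0.40 ± 0.06 for Rps2, 0.38 ± 0.06 for Rpl15, -0.36 ± 0.07 for Rplp2, -0.34 ± 0.07 for Rps19 and -0.29 ± 0.06 for Rpl37.

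**Figure D2:**
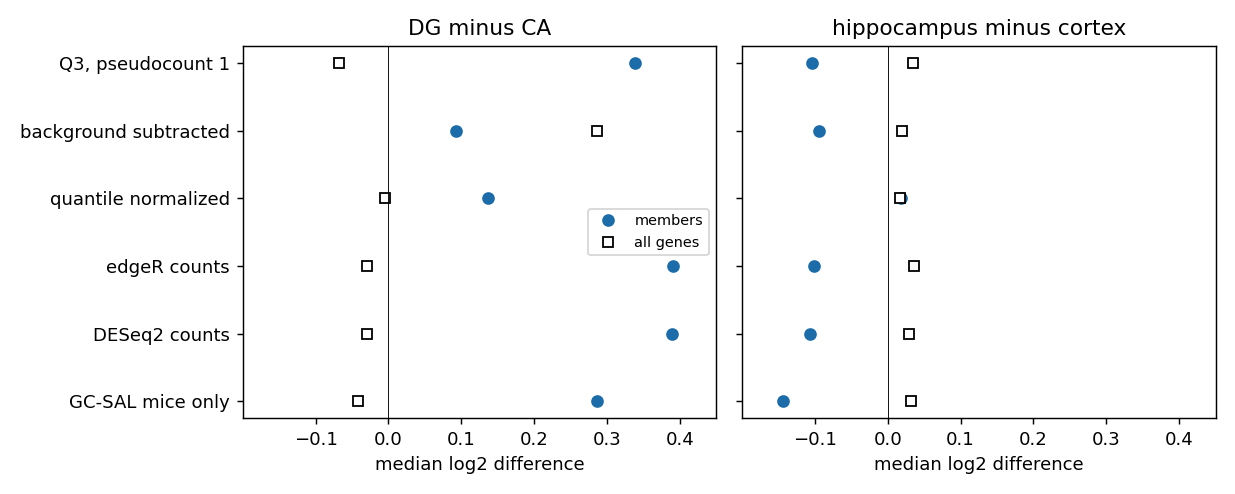
Median log2 difference of the 82 ribosomal protein genes (filled circles) and of all genes tested (open squares) for DG minus CA and for hippocampus minus cortex under 6 ways of processing (rows). In DG minus CA the median of the ribosomal protein genes is 0.34 on the Q3 scale and 0.09 after background subtraction, where the median of all genes is 0.29.

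Many of the genes, including many that were higher in DG than in CA, were lower in the hippocampus than in the cortex on the Q3 scale. In the contrast of the mean of CA and DG with the mean of FCT and CT, 61 of the 82 genes were lower and 21 higher, with a median of -0.10 against 0.03 over all genes. At an adjusted p below 0.05, 35 genes were lower in the hippocampus, where 13% of all genes were called in that direction, and 0 were higher, where 9.68% were. Of the genes with a positive difference, 3 had an unadjusted p under 0.05, and 2 were called higher by edgeR (10.5% of all genes) and 0 by DESeq2 (7.03%). None of the 82 genes was beyond 1.5-fold, where 3.19% of all genes were called, nor was any with edgeR or DESeq2. The median was -0.11 for the large and -0.09 for the small subunit genes. Hippocampus was below cortex in all 12 mice for 14 of the genes, again without a count over all genes beside it. For 0 genes was every hippocampal AOI below every cortical AOI.

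Rpl38, a large subunit protein whose loss in mice alters the axial skeleton and the translation of Hox mRNAs, showed the largest difference. Its lowest, median and highest Q3-normalized counts were 132.5, 146 and 183 in CA and 157, 174 and 219 in DG. They were 188, 249 and 287 in FCT and 204, 249.5 and 277 in CT. Both hippocampal regions were therefore below both cortical regions, with overlap at the edges between DG and the cortex, and hippocampus was below cortex in 12 of 12 mice. The log2 difference was -0.55 ± 0.05 (SE, adjusted p = 6.9e-18). Rps21 of the small subunit measured 167 ± 20.2 in hippocampus and 219 ± 23.9 in cortex (SD, n = 24 AOIs of 12 mice each), a log2 difference of -0.39 ± 0.05. Rps15, also of the small subunit, measured 166 ± 23.9 and 218 ± 24.2 (-0.40 ± 0.05). Rps3, which lies at the mRNA entry site, measured 93.3 ± 14.4 and 120 ± 10.9 (-0.38 ± 0.05). Rpl19, which takes part in a bridge between the subunits, measured 209 ± 30.9 and 257 ± 21.2 (-0.31 ± 0.05), and Rpl37 measured 163 ± 18.5 and 204 ± 21.5 (-0.32 ± 0.05). Rps21, Rps15, Rps3 and Rpl37 were lower in hippocampus in 12 of 12 mice and Rpl19 in 11.

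Of the stalk genes, Rplp2 (-0.31 ± 0.05, adjusted p = 6.5e-07) and Rplp0 (-0.16 ± 0.06, adjusted p = 0.045) were lower in hippocampus, while Rplp1 differed by -0.11 ± 0.05 (adjusted p = 0.087). Rps2, Rpl15 and Rpsa, among the genes furthest above CA in DG, differed between hippocampus and cortex by 0.09 ± 0.05, 0.01 ± 0.05 and 0.01 ± 0.06, with no call. Rps6 differed by 0.02 ± 0.05 and Rpl3 by 0.08 ± 0.05. The count of genes lower in hippocampus was 32 after background subtraction, where 12.9% of all genes were called lower, 35 with edgeR (13.6%) and 38 with DESeq2 (12.3%). After background subtraction 2 genes were called higher, where 6.75% of all genes were. After quantile normalization 15 genes were called lower, where 12.2% of all genes were, and 11 higher, where 9.03% were, and the family median was 0.02, the same as that of all genes. The 15 genes lower in hippocampus in all of these were Rpl8, Rpl12, Rpl13a, Rpl14, Rpl19, Rpl24, Rpl28, Rpl31, Rpl37, Rpl38, Rplp2, Rps3, Rps10, Rps15 and Rps21. The share of all genes kept in the same way is not given. Of these 15 genes, Rpl12, Rpl37 and Rplp2 were not called between DG and CA in the main fit. The rest were also called higher in DG than in CA in the main fit, and the CA values enter both comparisons. None of them is among the 19 genes whose call in DG vs. CA held under every one of these ways of processing. Centred on the mean of the family, Rpl38 (-0.44 ± 0.04), Rps21 (-0.28 ± 0.04) and Rps15 (-0.28 ± 0.05) were lower, while Rps2 (0.21 ± 0.04) was higher (limma, adjusted p between 3.5e-15 and 2.0e-05). Summed neuron markers were 674 to 1016 (CA), 800 to 1189 (DG), 1289 to 1915 (FCT) and 1301 to 2549 (CT). Summed oligodendrocyte markers were 526 to 772, 467 to 787, 568 to 1964 and 696 to 1885 in the same order. The part of cell composition in these differences was not tested.

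**Figure D3:**
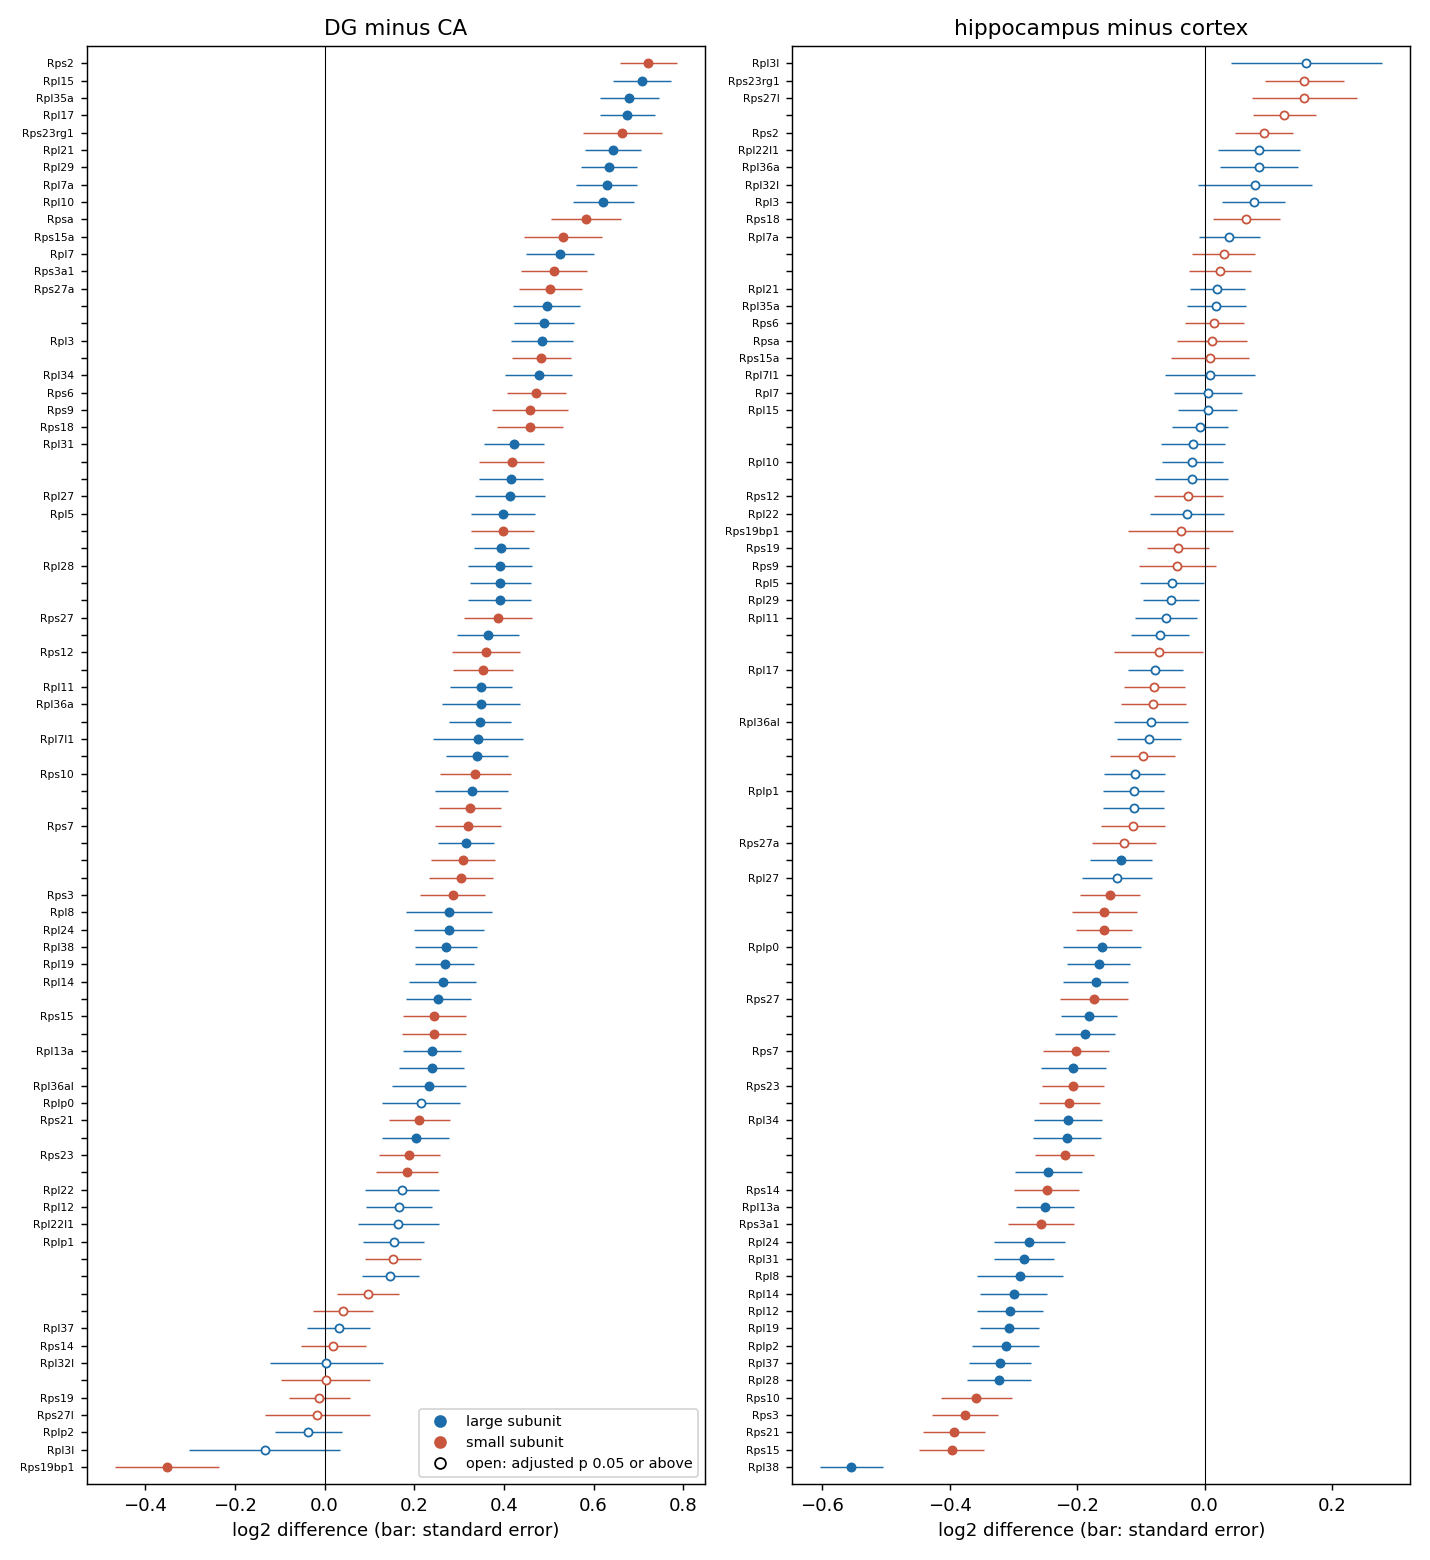
Log2 difference of each of the 82 ribosomal protein genes for DG minus CA (left) and for hippocampus minus cortex (right), with standard errors as bars, blue for large and red for small subunit genes, and filled where the adjusted p is below 0.05; only genes described in the text carry a name. On the left 64 filled points lie above 0, with Rps2 at 0.72; on the right 35 filled points lie below 0, with Rpl38 at -0.55.

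FCT and CT differed little. The median difference was 0.07, against 0.00 over all genes, and 68 genes were higher in FCT. After quantile normalization the median of the 82 genes was 0.12, and that of all genes is not given. At an adjusted p below 0.05, 0 of the 82 genes were called by limma, where 0.786% of all genes were, and 14 had an unadjusted p under 0.05, all higher in FCT. The share of all genes under that unadjusted p is not given, so the 14 have no base rate. The 6 genes with the lowest p were Rpl21 (0.19 ± 0.06, adjusted p = 0.14), Rpl7a (0.19 ± 0.07), Rps2 (0.18 ± 0.06), Rps27a (0.19 ± 0.07), Rps27 (0.20 ± 0.08) and Rps12 (0.19 ± 0.08), with adjusted p between 0.14 and 0.39. With edgeR 0 genes were called (1.91% of all genes), with DESeq2 3 (1.86%), namely Rpl21, Rpl7a and Rps2, 0.17 to 0.19 higher, and after quantile normalization 2 (0.811%).

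The second question was how spaceflight changed these genes. In saline-treated mice, 0 of the 82 genes passed adjusted p below 0.05 and 1.5-fold in any region (limma within a region), and 0 did with edgeR or DESeq2. Of all genes, 0.139% (CA), 0.266% (DG), 0.0507% (FCT) and 0.0887% (CT) passed. In DG most of the genes were higher in flight: 66 were higher and 16 lower, with a median log2 difference of 0.17 against -0.01 over all genes. The medians were 0.17 for the large and 0.19 for the small subunit. Of the 82 genes, 21 (25.6%) had an unadjusted p under 0.05 in DG, all higher in flight, against 7.41% of all genes. The 3 FLT-SAL mice were all above the 3 GC-SAL mice for 28 genes, where 7.39% of all genes were, and all below for 1 gene, where 7.45% were. In CA, 55 genes were higher (median 0.06 against 0.02 over all genes), 4 had an unadjusted p under 0.05, 10 did not overlap upwards (7.55% of all genes) and 1 downwards (5.33%). In FCT, 37 genes were higher (median -0.01 against 0.03), 2 had an unadjusted p under 0.05, 6 did not overlap upwards (7.41%) and 3 downwards (4.7%). In CT, 58 were higher (median 0.04 against 0.01), 1 had an unadjusted p under 0.05, 7 did not overlap upwards (5.14%) and 0 downwards (5.23%). For CA, FCT and CT the share of all genes with an unadjusted p under 0.05 is not given. The difference of the flight change between hippocampus and cortex was past adjusted p below 0.05 for 0 of the 82 genes, where 0.038% of all genes were, and 5 had an unadjusted p under 0.05.

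In DG, Rps10, which is ubiquitinated when ribosomes collide, measured 64.9, 67.9 and 89.1 in GC-SAL mice and 109, 93.6 and 101 in FLT-SAL mice. The groups did not overlap, and the log2 difference was 0.46 ± 0.15 (SE, unadjusted p = 0.0041, adjusted p = 0.28 in limma). Rps7, which binds Mdm2 and is mutated in Diamond-Blackfan anaemia, measured 124, 146 and 119 in GC-SAL and 172, 168 and 166 in FLT-SAL, a difference of 0.38 ± 0.13 (limma, adjusted p = 0.30) without overlap. The stalk gene Rplp1 measured 190.5, 241 and 213 in GC-SAL and 277, 262 and 277 in FLT-SAL, a difference of 0.35 ± 0.12 (limma, adjusted p = 0.33). All 3 were higher in each flight mouse than in any ground mouse, yet none passed the threshold over all genes. They were picked for the lowest p in this comparison, so their lack of overlap is no separate result. The shift of the family in DG was 0.16 and 0.17 with edgeR and DESeq2, 0.17 after background subtraction and 0.03 after quantile normalization, where 46 genes were higher. DG AOIs of FLT-SAL mice were also deeper, with 965868 to 1372780 counts against 496732 to 767199 in GC-SAL, and held more nuclei, 545 to 640 against 477 to 528. Their signal over background was 3.26 to 4.18, against 2.97 to 3.71. All 8 neuron marker genes (median 0.33) and all 5 dentate granule marker genes (median 0.33) were also higher in FLT-SAL than in GC-SAL, and 1 of them was called. Their summed levels were 1033 to 1189 against 800.5 to 945 for the neuron markers and 433 to 476 against 320 to 379 for the dentate granule markers. The part of these values in the shift was not tested. FLT-SAL AOIs were deeper in FCT too, without overlap (median 1271620 counts against 655327), and in CT with overlap (1378630 against 764612). After quantile normalization the difference in DG was 0.22 for Rps7 and 0.14 for Rplp1.

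In CA, Rps7 measured 92.4, 114 and 90.4 in GC-SAL and 149.5, 128 and 148 in FLT-SAL, a log2 difference of 0.52 ± 0.16 (limma, adjusted p = 0.26). Rpl12 and Rpl27, both of the large subunit, differed by 0.39 ± 0.16 (adjusted p = 0.58) and 0.42 ± 0.18 (adjusted p = 0.65). In all 3 genes the flight mice were above the ground mice without overlap, but these genes too were picked for the lowest p in this comparison. Rpl12 differed by 0.25 without GC-SAL mouse 3 and by 0.23 after quantile normalization. The CA AOIs of FLT-SAL were also deeper without overlap, with 603927 to 948561 counts against 370066 to 483270, and the part of depth was not tested. In FCT the genes with the lowest p were Rps23rg1 (-0.39 ± 0.17, adjusted p = 0.79), Rpl32l (0.42 ± 0.20, adjusted p = 0.86, and 0.89 after background subtraction) and Rpl5, which joins Rpl11 in binding Mdm2 (-0.31 ± 0.15, adjusted p = 0.88). In CT they included Rps14, a gene linked to the anaemia of the 5q deletion (0.31 ± 0.15, adjusted p = 0.94), and Rps7 (0.31 ± 0.16, adjusted p = 0.95), which differed by 0.14 without GC-SAL mouse 3.

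Averaged over the 4 regions, FLT-SAL exceeded GC-SAL for 63 of the 82 genes, with a median of 0.06 against 0.01 over all genes. That median was 0.02 when GC-SAL mouse 3 was left out, 0.09 when GC-SAL mouse 2 was and 0.03 when FLT-SAL mouse 3 was. Rps7 was the 1 gene called at an adjusted p below 0.05, where 1.85% of all genes were. It averaged 128 ± 25.1 over the 12 AOIs of GC-SAL and 156 ± 18.5 over those of FLT-SAL (SD, 3 mice each), a log2 difference of 0.31 ± 0.08 (limma, adjusted p = 0.014), which is below 1.5-fold. In FCT, where GC-SAL measured 169.6, 149 and 135 and FLT-SAL 131, 144 and 189, the groups overlapped. In CT, GC-SAL measured 136, 154 and 101.5 and FLT-SAL 145.5, 176 and 158, again with overlap, while in CA and DG the groups did not overlap. The call was lost on counts summed per mouse (0.27 with both edgeR and DESeq2, adjusted p = 0.42 and 0.31) and after quantile normalization (0.22, adjusted p = 0.096). It was also lost without FLT-SAL mouse 2 (0.32, adjusted p = 0.071), FLT-SAL mouse 3 (0.26, adjusted p = 0.20) or GC-SAL mouse 3 (0.22, adjusted p = 0.27). Without GC-SAL mouse 2, 2 genes were called.

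**Figure D4:**
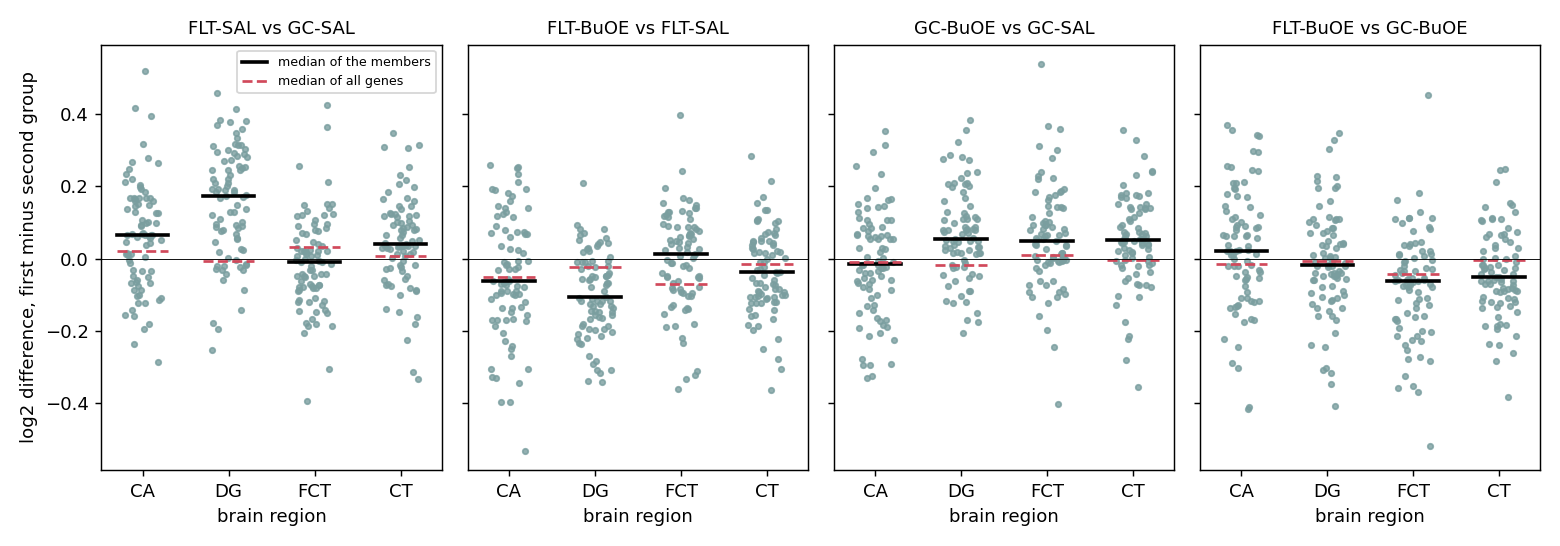
Log2 difference of each of the 82 ribosomal protein genes (points) in 4 group comparisons within each region, with the median of the genes (solid line) and of all measured genes (dashed line); horizontal scatter is only for display. In FLT-SAL vs. GC-SAL the DG median is 0.17 while that of all genes is -0.01, and 0 of the points in any panel passed the threshold over all genes.

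The third question was what BuOE did. For FLT-BuOE vs. FLT-SAL, 0 of the 82 genes passed the threshold in any region, while 0.00634% (CA), 0% (DG), 0.0317% (FCT) and 0.0697% (CT) of all genes did. Unadjusted p was under 0.05 for 3, 8, 2 and 0 genes in that order, and the share of all genes is given for DG only. In DG, 65 of the genes were lower in FLT-BuOE, with a median of -0.11 against -0.02 over all genes, and all 8 genes with an unadjusted p under 0.05 (9.76% of the 82, against 6.2% of all genes) were lower. The DG AOIs of FLT-BuOE mice were shallower than those of FLT-SAL, with 416744 to 628791 counts against 965868 to 1372780, and held fewer nuclei, 401 to 453 against 545 to 640, both without overlap. The part of these values in the difference was not tested, here or in the interaction, which uses the same AOIs. This comparison shares its FLT-SAL mice with the flight comparison above. The share of the family in DG was 1.97, 2.12 and 2.15% in GC-SAL, 2.15, 2.28 and 2.34% in FLT-SAL and 2.09, 2.20 and 2.22% in FLT-BuOE, ordered by size. Of these, GC-SAL lay below FLT-SAL without overlap, while FLT-BuOE overlapped both. For GC-BuOE vs. GC-SAL, 0 genes passed in any region, while 0% (CA), 0% (DG), 0.00634% (FCT) and 0% (CT) of all genes did, and unadjusted p was under 0.05 for 1, 4, 2 and 2 genes. For FLT-BuOE vs. GC-BuOE, 0 passed, while 0.0444% (CA), 0.108% (DG), 0.019% (FCT) and 0.0127% (CT) of all genes did, and unadjusted p was under 0.05 for 4, 5, 5 and 0 genes. In DG the median of the 82 genes was -0.02 in this comparison. With edgeR and DESeq2 the counts were 0 in each of these comparisons too.

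The interaction, that is the flight change under BuOE minus that under saline, was past adjusted p below 0.05 for 0 of the 82 genes in each region with limma, edgeR and DESeq2, while 0.00634% (CA), 0% (DG), 0.00634% (FCT) and 0.019% (CT) of all genes were. Unadjusted p was under 0.05 for 1, 11, 3 and 0 genes, and the share of all genes is given for DG only. In DG, 67 genes had a negative interaction, with a median of -0.15 against 0.00 over all genes, and all 11 genes with an unadjusted p under 0.05 (13.4% of the 82, against 6.39% of all genes) were negative. The lowest p among them was that of Rps23rg1, with -0.56 ± 0.21 (limma, adjusted p = 0.65). Rps10, with -0.58 ± 0.22 (limma, adjusted p = 0.65), and Rplp1, with -0.44 ± 0.17 (adjusted p = 0.68), were also among them. The interaction contains the flight change under saline with a minus sign. Rps10 and Rplp1 were picked for a rise in that change, so their negative values are no separate result.

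Averaged over regions, 0 genes passed adjusted p below 0.05 in FLT-BuOE vs. FLT-SAL (0.437% of all genes did), 0 in GC-BuOE vs. GC-SAL (0%) and 0 in the interaction (0.152%), with unadjusted p under 0.05 for 7, 4 and 8 genes and 0 calls by edgeR or DESeq2. In FLT-BuOE vs. GC-BuOE, 1 of the 82 genes passed, where 0.672% of all genes did. The count was 0 with edgeR and with DESeq2 on counts summed per mouse. It was also 0 without FLT-BuOE mouse 1 or 3, without GC-BuOE mouse 1 or 2, and without FLT-SAL mouse 2, which enters only the estimate of spread. The difference of the flight change between hippocampus and cortex under BuOE was called for 0 of the 82 genes, where 0.00634% of all genes were, and 3 had an unadjusted p under 0.05.

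**Figure D5:**
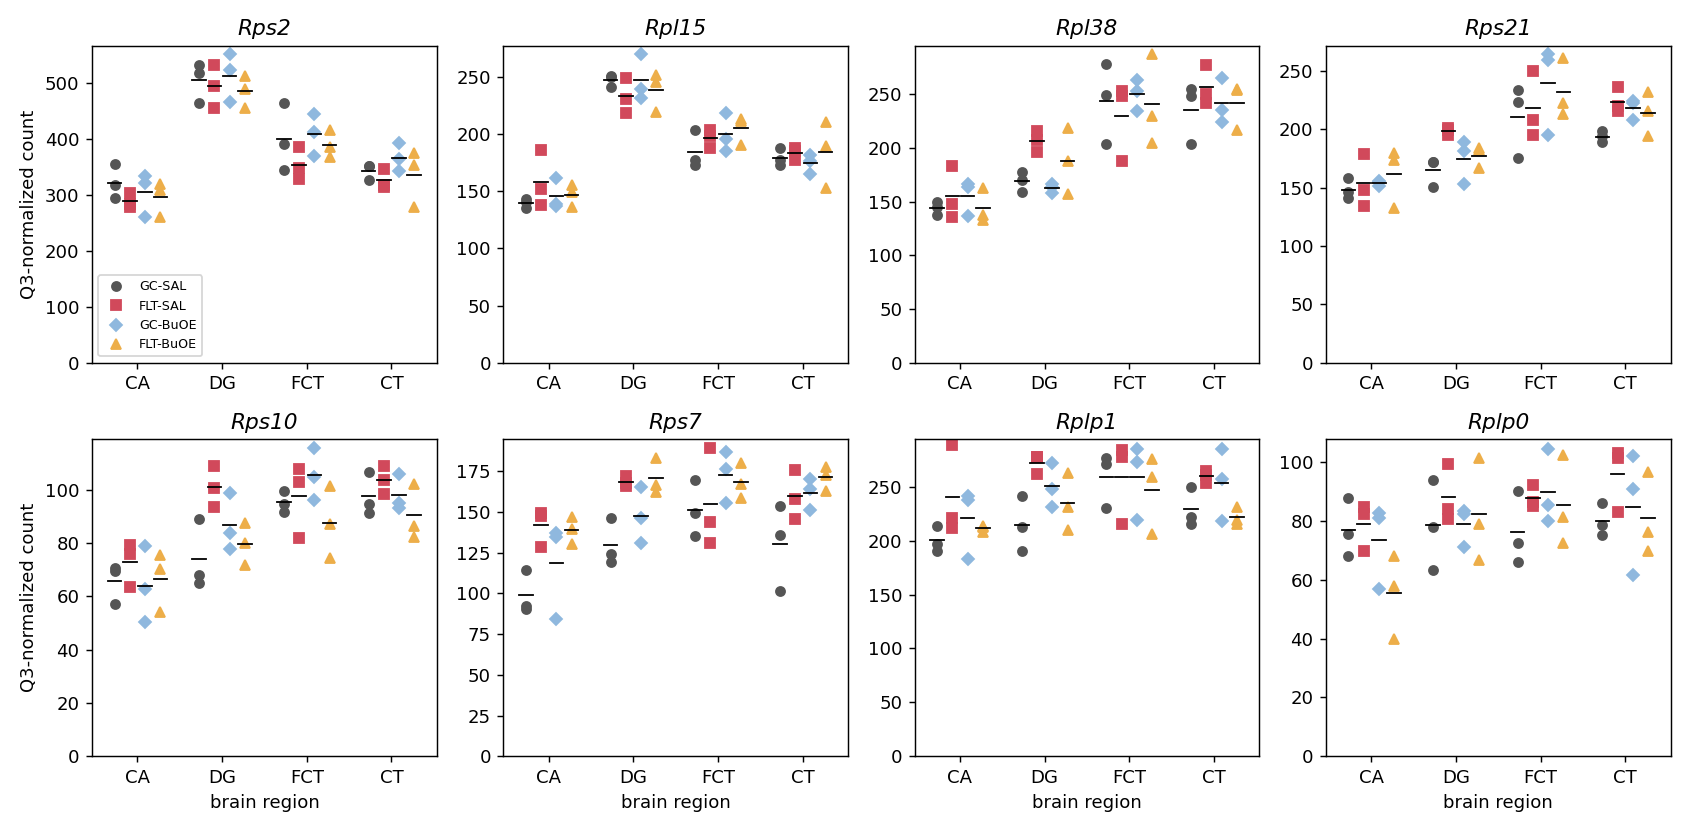
Q3-normalized count (vertical axis from 0) of 8 ribosomal protein genes in every AOI, by region and group, with points for mice and lines for means of 3 mice. Rps2 and Rpl15 show DG above CA without overlap, and Rps10, Rps7 and Rplp1 in DG show FLT-SAL above GC-SAL without overlap. Rpl38 and Rps21 are higher in the cortex than in the hippocampus, with overlap between single AOIs.

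Other genes of the translation machinery gave the setting. In DG minus CA, 10.5% of all genes were called higher and 13.1% lower. The 78 mitochondrial ribosomal protein genes had a median of 0.02, with 4 called higher and 1 lower. Of 37 initiation factors 10 were called higher and 1 lower, of 29 ribosome assembly factors 4 and 2, and of 16 genes of mTORC1 and the S6 kinases 3 and 2. Of 7 elongation factors 5 were higher, among them Eef1g (0.57 ± 0.07, adjusted p = 1.1e-10) and Eef2, which moves the ribosome along (0.25 ± 0.07, adjusted p = 0.0035). Of the ribosomal proteins outside the symbol rule, Fau differed by 0.16 ± 0.08 and Rack1 by 0.21 ± 0.09, neither past the threshold. In hippocampus minus cortex, Fau (-0.29 ± 0.05, adjusted p = 4.3e-06) and Rack1 (-0.22 ± 0.07, adjusted p = 0.0072) were lower. The elongation factors Eef1a2, the form of neurons and muscle (-0.84 ± 0.05, adjusted p = 1.4e-26), and Eef2 (-0.48 ± 0.05, adjusted p = 2.4e-15) were lower as well. Of the 78 mitochondrial ribosomal protein genes, 7 were lower and 2 higher, where 13% and 9.68% of all genes were. In DG of FLT-SAL vs. GC-SAL the mitochondrial ribosomal protein genes split into 38 higher and 40 lower (median -0.01) and the assembly factors into 14 and 15 (median -0.01). In the same comparison 27 of 37 initiation factors (median 0.09) and 5 of 7 elongation factors (median 0.20) were higher. There were 0 calls in any of these lists, and unadjusted p was under 0.05 for 4, 2, 3 and 2 genes. The shares of all genes in this comparison are given with the flight results above.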

How the data were processed

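Probe tags were sequenced, trimmed, stitched, aligned to the tag list and deduplicated by the authors with the GeoMx NGS Pipeline, and the deposited count files hold 1 whole count per probe and AOI. The authors scaled each AOI to a common upper quartile (Q3), and the deposited Q3-normalized signal for 15782 genes was used for the main tests. The upper quartile was 40.0 in all 48 AOIs, so the same scaling value was used for all regions. This equality is made by the scaling, and signal over background still differed between regions, as given above. No genome alignment was involved. Tables of the authors' own comparisons, which hold fold changes and p-values, were not used. Counts were tied to genes by matching each gene's signal to a probe: 15777 genes matched 1 probe, and 99.98% of the values were whole multiples of 1 count within 0.02.

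Groups and mice were taken from the labels. limma 3.58.1 (R 4.3.3) was fitted to log2(signal + 1) with an intensity trend, within each region (12 AOIs, 4 groups) and over 48 AOIs with mouse as a random block (consensus correlation 0.0255). Log2 differences are on the log2(signal + 1) scale, and p-values were adjusted by Benjamini-Hochberg over all genes; a gene was called at adjusted p below 0.05, and beyond 1.5-fold (0.585 in log2) where stated. edgeR 4.0.16 quasi-likelihood and DESeq2 1.42.0 were run on counts. Scripts were tested on simulated data. Within a region, the p-values measure the spread between mice on single slides. In the fit over 48 AOIs they rest on the spread between AOIs of a region and group. At the correlation of 0.0255, AOIs of the same mouse count there as nearly independent, so these p-values do not measure the spread between mice alone. Where a count of genes at an unadjusted p under 0.05 stands without a share of all genes, it has no base rate and is descriptive only.

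The members and lists were chosen with earlier results of these data known. Genes named are the 3 of lowest p per region for FLT-SAL vs. GC-SAL, the 6 of lowest p between regions, those called in any group comparison, the stalk genes, Rpsa, Rps6, Rpl3, Rpl22, the like-named genes and the elongation factors; further genes named from the lists kept under every scaling and from the centred values were picked after their values were seen. A few genes that these rules select are not reported here by name.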

Additional observations from a re-analysis of the deposited data

How the results depend on the processing

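No direction reversed among the genes of lowest p in each comparison or those called between groups. Of the further genes described between regions, 2 called in DG vs. CA reversed: Rps23 after background subtraction (-0.15), quantile normalization and centring, and Rpl36al when centred on the family (-0.09). Other reversals concerned differences that were not called, such as Rpl37 (0.03) and Rplp1 (0.15), which were at -0.32 and -0.21 after background subtraction. Genes called in DG vs. CA numbered 28 after background subtraction, 35 after quantile normalization, 12 in GC-SAL mice only and 37 when centred on the family, an alternative added after the data were seen. Beyond 1.5-fold they numbered 2, 0 and 1 with background subtraction, quantile normalization and centring. The DG vs. CA median was 0.0923 and 0.136 under the first 2 of these. In FCT vs. CT, 2 genes were called after quantile normalization, where the median was 0.124, and 3 with DESeq2. In hippocampus vs. cortex, GC-SAL mice only gave 11 genes, and 1 beyond 1.5-fold, with fewer samples; the median was 0.0181 after quantile normalization. For FLT-SAL vs. GC-SAL, quantile normalization gave a median of 0.0320 in DG and -0.0228 over regions, where the 1 gene called was lower in flight. Averaged over regions, edgeR and DESeq2 called 0 genes in FLT-SAL vs. GC-SAL and in FLT-BuOE vs. GC-BuOE, and background subtraction called 1 in FLT-BuOE vs. FLT-SAL. The cause of these changes was not tested. Leaving out each mouse in turn moved the FLT-SAL vs. GC-SAL median over regions between 0.0211 and 0.0884 and that in DG between 0.117 and 0.196, and gave 0 to 2 genes for FLT-SAL vs. GC-SAL over regions, 0 to 1 for FLT-BuOE vs. FLT-SAL (1 without FLT-BuOE mouse 2) and 0 to 1 for FLT-BuOE vs. GC-BuOE. A pseudocount of 5, a filter at 1.5 times the negative-control value and the standard ribosomal proteins alone kept every count within 1.5 times.

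Replicate numbers of different groups name different mice, and their deviations correlated by -0.18 to 0.10 over 16 comparisons, so they pair nothing; with the replicate number as a block 0 genes were called within regions. Without the mouse as a block, 65 genes were called in DG vs. CA and 34 in hippocampus vs. cortex. The differences of the flight change between hippocampus and cortex were not run in edgeR or DESeq2. With 3 mice a group, the median standard error of a log2 difference was 0.13 to 0.16 within a region. Changes well above that size could also go uncalled. Rps10 in DG, at 0.46 ± 0.15 in FLT-SAL vs. GC-SAL, had an adjusted p of 0.28 (limma). The absence of calls therefore does not exclude such changes.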
